A study of Mus musculus with 15 samples.

Results

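RNA was compared between 2-cell embryos that lacked maternal Usp16 and WT 2-cell embryos, over the 14392 genes of the deposited expression table. The comparison used 4 of the 15 samples of the series, 2 WT and 2 cKO libraries, each made from 10 pooled embryos. WT embryos were Usp16+/+. The cKO embryos were maternal Usp16-/paternal +, from Usp16 fl/fl;Gdf9-Cre mothers, in which Cre is driven by the Gdf9 promoter and acts in oocytes from the primordial follicle stage onward, so the Usp16 gene inherited from the father was intact. Both groups were C57BL/6, came from superovulated females of 21 to 23 days mated with WT males of 10 to 12 weeks, and were cultured in KSOM medium. The 4 zygote libraries of the series (2 WT, 2 cKO) entered only to estimate the spread between replicates and as a reference level for maternal RNA, and the 7 ChIP samples were not analysed here.

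USP16 is a deubiquitinase that takes ubiquitin off histone H2A, the mark H2AK119ub1 which Polycomb repressive complex 1 (PRC1) writes and which is associated with gene silencing. The mouse egg is filled with RNA that the mother made and is itself silent. Zygotic genome activation (ZGA) starts in the zygote and has its major wave at the 2-cell stage, when maternal RNA is cleared and the embryo makes its own RNA, with genes for ribosomes, RNA processing and protein turnover prominent in that wave. A 2-cell transcript can therefore be maternal, zygotic or both, and an RNA level does not say which.

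FPKM values (fragments per kilobase of transcript, scaled to the mapped fragments of the library) were deposited with every value under 1 set to 1, so 1 is called the floor and a fold against it is a lower bound. A gene is said to have fallen or risen where limma gave an adjusted p under 0.05 on log2(FPKM + 1), a scale that understates the change of low genes. By that test 854 genes fell and 120 rose in cKO embryos, 5.93% and 0.834% of all genes, and every one of them had both cKO libraries on the same side of both WT libraries. The fold rule of the study, a ratio of group means over 3, called 1940 genes lower and 409 higher, 13.5% and 2.84% of all genes. A gene with a WT mean of 3 or less cannot pass it downward, and of the 9800 genes above that level 19.8% did. Each cKO value was below each WT value for 6239 genes (43.4%) and above each for 2008 (14%).

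The direction of these counts depended on the scaling, since FPKM has no external standard. The median gene was lower by 0.30 on the log2 scale in cKO embryos as deposited. With libraries scaled by the median ratio that median became 0 and the test gave 345 falls and 245 rises, and with quantile normalization it gave 281 and 280. By the fold rule, median-ratio scaling gave 905 genes lower and 993 higher, so the larger count changed side. The summed FPKM was 547752 to 593317 in 7 of the 8 libraries and 770989 in cKO replicate 2, while the floor held 1642 and 1716 genes in WT 2-cell libraries and 3684 and 4240 in cKO. The part of these library differences in the results was not tested. The estimated variance of the cKO 2-cell group was 4.96 on a scale where the 2 zygote groups had 0.416 and 0.246 and the WT 2-cell group 1.96. Without cKO replicate 1 the test gave 642 falls and 284 rises and without cKO replicate 2 it gave 424 and 172, while without WT replicate 1 or 2 it gave 1593 and 185 or 1656 and 152. With the 4 2-cell libraries fitted alone no gene passed, where an unadjusted p under 0.05 was reached by 3416 genes with lower and 819 with higher levels, so every call rests on the zygote libraries for its estimate of spread. Changes of gene groups are given relative to the median of all genes. Each library pooled embryos, so fewer embryos with a transcript and less of it in each embryo cannot be told apart.

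Usp16 itself did not pass the test between the 2-cell groups. On chromosome 16 (mm9, 87473099 to 87480158), it had 168 and 183 FPKM in WT embryos and 168 and 84.8 in cKO embryos, a log2 fold change of -0.55 (SE 0.53, adjusted p = 0.564, limma). An exact two-sided permutation test of 2 against 2 cannot go below p = 0.333, the value it gave, so it cannot tell the groups apart here. In zygotes the group means were 186 FPKM in WT and 19.4 in cKO, so the label was visible there. The cKO 2-cell embryos also carried a paternal allele, and how much of their Usp16 RNA came from it was not tested. The 9 markers set for 2-cell embryos and their maternal RNA (Zscan4d, Zfp352, Zp3, Gdf9, Bmp15, Nlrp5, Ooep, Dppa3 and Pou5f1) were above the floor in each of the 4 libraries. Zscan4d, a marker of the 2-cell stage, had 42.4 and 52.5 FPKM in WT and 6.35 and 20.9 in cKO embryos.

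The 8 largest falls came from genes of varied function. They are the genes past the test whose cKO libraries each differed more than 3-fold from each WT library, with at least 10 FPKM in the higher group, of which there were 258 lower and 39 higher. Th, which makes the rate-limiting enzyme of dopamine synthesis, had 43.1 and 52.5 FPKM in WT embryos and 2.11 and 1 in cKO embryos, a log2 fold change of -4.28 (SE 0.58, adjusted p = 0.0173). Gstm1, a glutathione transferase that shares sequence with other Gstm genes, had 45.5 and 44.6 against 2.503 and 1 FPKM. Abhd14b, a lysine deacetylase of the alpha/beta hydrolase fold, had 41.5 and 36.03 against 2.32 and 1. In each of these 3 genes cKO replicate 2 was at the floor and replicate 1 just above it. The 8 log2 fold changes ran from -4.28 for Th to -3.62 for C86187, and the lowest adjusted p was 0.00628, for Gstm1.

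The other falls of this set did not reach the floor in either cKO library. C86187, an expressed sequence without a gene name, had 1992 and 1423 FPKM in WT and 122 and 151 in cKO embryos. Pkd2l2, a polycystin-like channel gene, had 628 and 489 FPKM against 40.9 and 46.7. Stard3nl, which links late endosomes to the endoplasmic reticulum, had 247 and 207 against 13.6 and 14.3. Within each of these 3 genes the cKO libraries were close to each other. Agr3, a protein disulfide isomerase relative, had 39.9 and 32.4 FPKM against 1.77 and 1.73. Ccni, a cyclin, had 55.3 and 31.7 against 3.78 and 1.38, and its adjusted p of 0.0371 was the highest of the 8.

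The 8 largest rises were genes with under 5 FPKM in WT embryos. Dydc2, a DPY30 domain gene, had the floor value in each WT library and 14.9 and 30.2 FPKM in cKO embryos (log2 fold change 3.48, SE 0.40, adjusted p = 0.0101). Spesp1, a sperm equatorial segment gene, had 2.84 and 1.43 FPKM in WT and 36.9 and 26.4 in cKO embryos. Nt5c, a nucleotidase, had 3.17 and 1.49 against 31.6 and 32.7. That the lowest cKO value was over 3 times the highest WT value follows from the limits of the set. Hibch, of valine breakdown, had 1.46 and 2.53 FPKM against 27.5 and 26.6, and Bhmt, which remethylates homocysteine, 2.15 and 4.42 against 37.5 and 28.05. Aimp1, a scaffold of the tRNA synthetase complex, had 2.87 and 1.38 FPKM against 24.01 and 31.7. Syngr1, a synaptic vesicle protein gene, had 2.66 and 2.595 against 21.6 and 34.7. The last of the set was Ptgis, prostacyclin synthase, with 1.84 and 1 against 16.2 and 18.7 (adjusted p = 0.04603). The 8 log2 fold changes ran from 2.95 to 3.48.

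The promoters of the 3 largest falls and 3 largest rises are shown with CpG marked, since CpG content is set beside the changes further on. Each line runs from 40 bases before to 20 bases after the start of the longest GENCODE transcript in mm9. It reads 5′ to 3′ on the gene's strand, with CpG in capitals.
Th (chr7:150117014-150117073, minus strand): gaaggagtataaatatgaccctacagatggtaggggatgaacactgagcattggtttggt
Gstm1 (chr3:107820872-107820931, minus strand): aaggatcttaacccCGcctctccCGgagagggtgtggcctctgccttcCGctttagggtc
Abhd14b (chr9:106350931-106350990, plus strand): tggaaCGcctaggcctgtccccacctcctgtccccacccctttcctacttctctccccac
Dydc2 (chr14:41882344-41882403, minus strand): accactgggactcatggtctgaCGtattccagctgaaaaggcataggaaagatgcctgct
Spesp1 (chr9:62129967-62130026, minus strand): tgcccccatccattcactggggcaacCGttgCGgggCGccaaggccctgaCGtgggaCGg
Nt5c (chr11:115353146-115353205, minus strand): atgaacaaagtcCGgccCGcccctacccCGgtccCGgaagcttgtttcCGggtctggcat

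The Th window held no CpG and the letters TATAAA, which none of the other 5 windows held on either strand. Over the 300 bases from 250 before to 50 after the start, Th had 3 CpG, Gstm1 14, Abhd14b 11, Dydc2 1, Spesp1 19 and Nt5c 14, against a median of 19 over all genes. None of the 6 exceeded that median, and both directions included a CpG-poor promoter (Th, Dydc2) and richer ones. TATAAA was found on either strand in 4.96% of the windows of the genes that fell (41 of 826), in 3.42% of those that rose (4 of 117) and in 2.54% of all 13897 windows. A match of letters is a description and shows no binding.

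**Figure D1:**
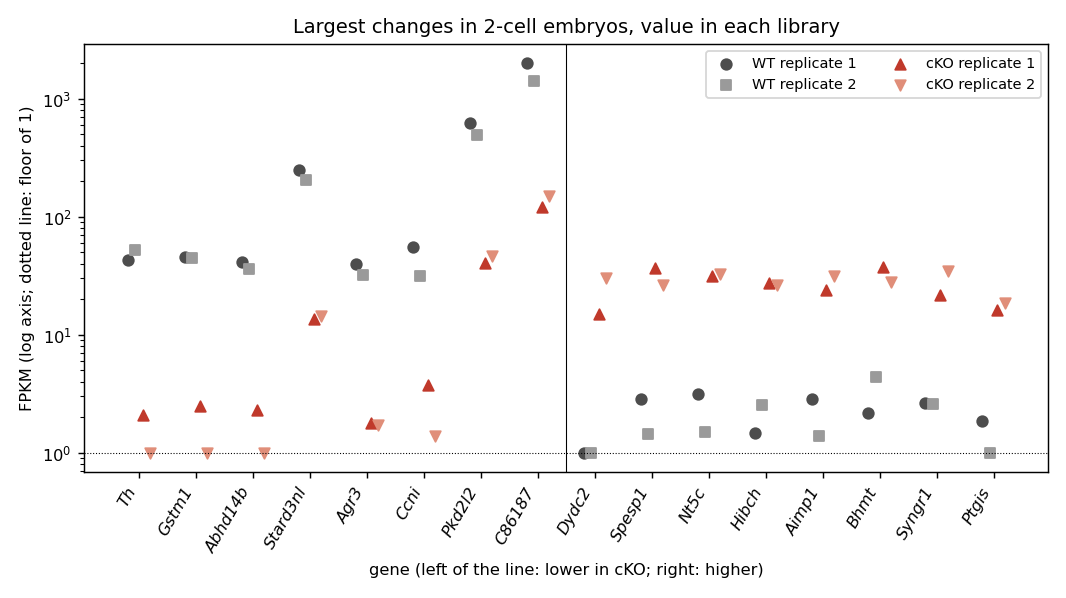
FPKM (log axis) of the 8 largest falls and 8 largest rises in each of the 2 WT (grey) and 2 cKO (red) 2-cell libraries, with a dotted line at the floor of 1. In all 16 genes both cKO points lie on the same side of both WT points, as their choice required. The rises start from under 5 FPKM in WT embryos.

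Genes for cytoplasmic ribosomal proteins had the highest medians of the 57 gene lists in both cKO libraries. Of 86 members, 77 (89.5%) had each cKO value above each WT value, 41 (47.7%) were more than 3-fold higher and none was more than 3-fold lower, beside 14% and 2.84% of all genes. By the test 4 (4.65%) rose, beside 0.834% of all genes. Rpl7, of the large subunit, had 214 and 157 FPKM in WT and 897 and 1658 in cKO embryos (log2 fold change 2.73, SE 0.39, adjusted p = 0.0198). Rps27 had 170.1 and 305 against 889 and 2359, and Rps20, also of the small subunit, 279.7 and 233 against 927 and 2117. In these 3 genes replicate 2 was the higher cKO library. Rpl41, the member highest in WT embryos, had 3320 and 2389 FPKM against 6144 and 10835 (adjusted p = 0.316). Ribosomal protein genes have many processed copies in the genome, so their single values are uncertain.

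Together these 86 genes held 7.72% and 6.66% of the summed FPKM in WT embryos and 14.3% and 18.98% in cKO embryos. Large and small subunit genes stood at like levels, with medians 1.42 and 1.58 above all genes on the log2 scale in cKO replicate 1 and 2.43 and 2.53 in replicate 2. The group is short (median transcript 946 bases) and abundant, and short length moved with a higher ratio in replicate 2 and a high WT level in both. With the trend on transcript length removed its medians were 1.41 and 1.88 above all genes. Among genes of 100 to 300 FPKM in WT embryos, 14 of 26 ribosomal protein genes (53.8%) were more than 3-fold higher, beside 5.22% of all genes at that level. Above 300 FPKM it was 23 of 52 (44.2%), beside 13.4%. The count depended on the library: without cKO replicate 1 it was 57 and without replicate 2 it was 12, and the number that rose was 2 and 0.

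The machinery of mitochondria stood above all genes in both cKO libraries too. Among 76 mitochondrial ribosomal protein genes, 20 (26.3%) were more than 3-fold higher and 1 lower, beside 2.84% and 13.5% of all genes. The medians were 1.25 and 1.56 above all genes in cKO replicates 1 and 2. The higher count was 14 to 23 with each library left out in turn and 33 under the median-ratio scaling. Mrps31 rose from 1.48 and 1 FPKM in WT to 10.8 and 15.3 in cKO embryos, and Mrpl11 from 1.28 and 1 to 6.11 and 7.48. Mrps34 went the other way and fell, from 10.01 and 13.4 to 2.52 and 2.93. Of 99 genes of the respiratory chain and ATP synthase, which carry out oxidative phosphorylation, 16 (16.2%) were more than 3-fold higher and 2 lower, beside 2.84% and 13.5%. Only Ndufaf1, an assembly factor of complex I, rose (5.16 and 7.09 FPKM against 48.3 and 30.97, adjusted p = 0.0204). In complex III each cKO value was above each WT value for 7 of 9 genes, in the ATP synthase for 11 of 17, in complex I for 18 of 41 and in complex IV for 9 of 25. Over the list it was 47 of 99 (47.5%), beside 14% of all genes. At 100 to 300 FPKM in WT it was 56.5% of 23 beside 32.9%, but above 300 FPKM 18.2% of 11 beside 41%. The group is short (median transcript 1079 bases). Its medians were 0.78 and 1.38 above all genes, and 0.74 and 0.98 with the trend on length removed.

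Carbon metabolism upstream of the respiratory chain did not stand out in that way. The medians of 36 genes of pyruvate entry and the TCA cycle were -0.000281 and 0.10 relative to all genes, and those of 22 glycolytic genes -0.23 and -0.05. Suclg2, which makes the GTP-forming succinyl-CoA ligase, fell from 41.7 and 55.4 FPKM to 3.63 and 4.25 (log2 fold change -3.32, SE 0.33, adjusted p = 0.00853). Dlst, of the 2-oxoglutarate dehydrogenase complex, fell from 14.3 and 13.7 to 1.96 and 1. In both genes every cKO value was more than 3-fold below every WT value. Pgam2, the muscle phosphoglycerate mutase, rose from the floor value in each WT library to 4.197 and 4.27 FPKM. Gapdh, a common reference transcript, had 58.2 and 61.5 against 49.99 and 47.7 FPKM and Actb, another, 92.6 and 96.4 against 91.1 and 35.7, neither past the test. The log2 fold change of Gapdh was -0.29 as deposited and 0.18 under the median-ratio scaling.

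Proteasome genes, which make the complex that degrades ubiquitinated proteins, were also high. Of 52 members 31 (59.6%) had each cKO value above each WT value, beside 14% of all genes. More than 3-fold higher were 8 (15.4%), beside 2.84%. The medians were 1.13 and 1.27 above all genes. At 30 to 100 FPKM in WT, 44.4% of 18 members had each cKO value above each WT value, beside 21.5% of all genes. At 100 to 300 FPKM it was 87.5% of 16 beside 32.9%. The count of 8 was 5 without WT replicate 2, 12 without cKO replicate 1 and 18 under the median-ratio scaling. Psmg3, a chaperone of proteasome assembly, rose from 14.9 and 13.5 FPKM to 109 and 67.4, and Psma4, of the core particle, from 132 and 119.6 to 306 and 469. Psmb9 is an inducible core subunit of the immunoproteasome, and it fell from 6.68 and 13.7 to the floor in both cKO libraries. Elsewhere in the ubiquitin system the medians were near those of all genes: -0.30 and -0.05 over 127 F-box, cullin and Kelch genes and -0.03 and -0.14 over 118 RING finger and Trim genes. Klhl8, a Kelch adaptor of cullin ligases, fell from 224 and 201 FPKM to 44.3 and 37.5. Fbxo15, an F-box gene known as a target of Oct4, rose from 526 and 615 to 1569 and 1753. Trim61 fell from 369 and 498 to 80.1 and 83.6, while Trim43c, which has close relatives, rose from 49.5 and 37.3 to 147 and 164.

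Genes that build ribosomes and make RNA stood above all genes more in cKO replicate 1 than in replicate 2. The medians over 88 genes of ribosome biogenesis and the nucleolus were 1.17 and 0.70 in the respective libraries, with 2 rises and no fall. Gnl3, nucleostemin, rose from 76.3 and 76.3 FPKM to 416 and 369 (log2 fold change 2.35, SE 0.47, adjusted p = 0.0421). Ddx10, an RNA helicase, rose from 20.3 and 17.4 to 73.3 and 65.9. Npm1, the nucleolar chaperone nucleophosmin, had 909 and 1012 against 2939 and 2714 FPKM with groups that did not overlap, and missed the threshold (adjusted p = 0.0583). RNA polymerases I and III, which make ribosomal and transfer RNA, had medians 1.14 and 0.63 over 36 genes. Translation factors had 1.19 and 0.45 over 68 genes, of which 3 fell: Eif4e3, a cap-binding protein (48.4 and 62.97 to 12.4 and 9.43 FPKM), Gspt2, a release factor (6.55 and 6.82 to the floor), and Eef2k, the kinase that inhibits elongation (10.7 and 13.9 to 2.801 and 3.12).

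RNA processing and the general transcription machinery showed the same order of the libraries at a smaller size. Splicing genes had medians 0.81 and 0.40 over 102 members, RNA polymerase II with its general factors and Mediator 0.56 and 0.21 over 102, and nuclear pore and transport genes 0.61 and 0.10 over 65. Snrpd1, a core Sm protein, rose from 233 and 242 FPKM to 663 and 745, and Cwc27, a spliceosomal cyclophilin, from 2.92 and 2.61 to 16.2 and 14.9. Ccnh, the cyclin of the TFIIH kinase, rose from 11.3 and 9.48 to 54.6 and 38.2. Gtf2h2, a TFIIH core subunit, rose from 11.2 and 12.6 to 59.8 and 40.5. Thus 2 of the 3 rises of that list belonged to TFIIH, the complex that opens promoters and repairs DNA. Taf9b, a subunit of TFIID and SAGA, fell from 52.2 and 36.6 to 7.54 and 12.4. The 39 aminoacyl tRNA synthetase genes had medians 0.67 and 0.38, and Aimp1 was the only one to rise.

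**Figure D2:**
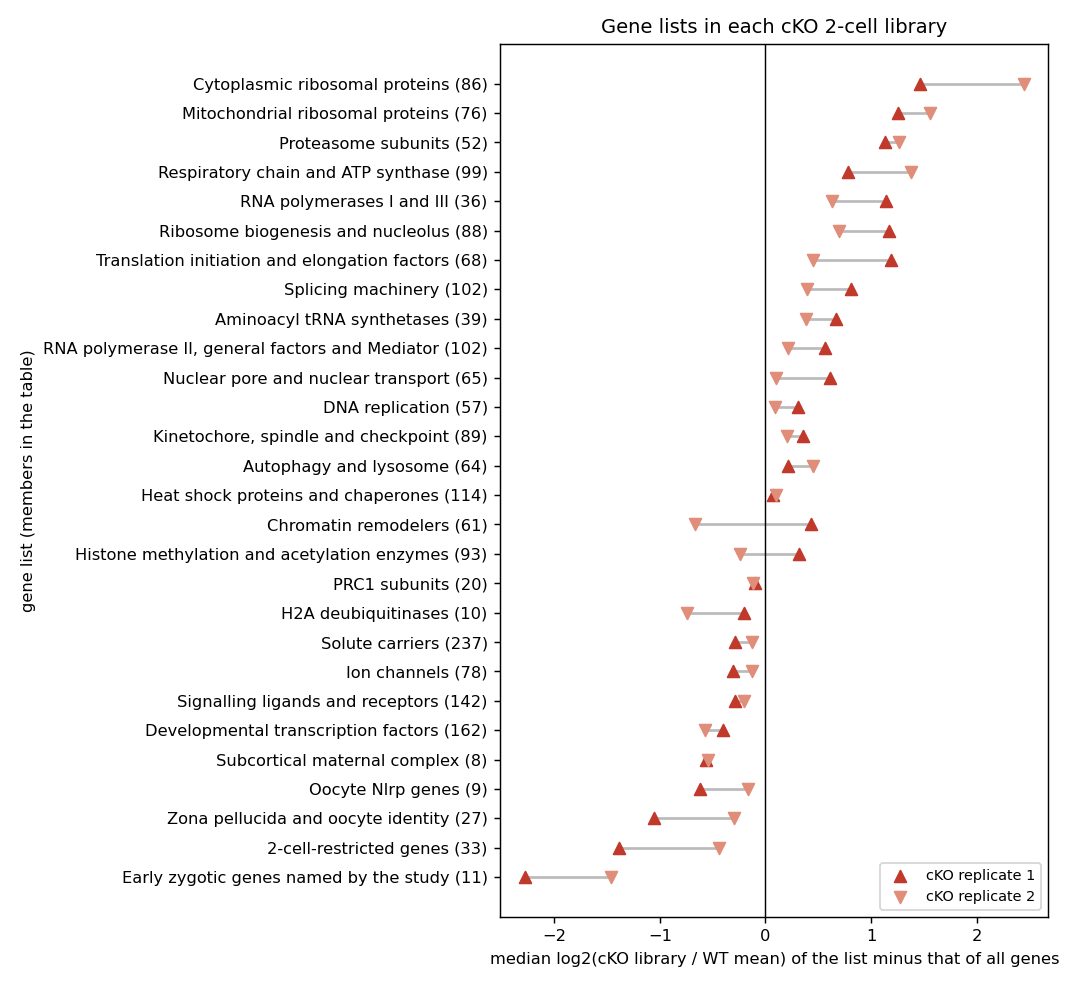
Median log2 ratio of each cKO 2-cell library to the WT mean, minus the median of all genes, for gene lists (members in brackets), with cKO replicate 1 as upward and replicate 2 as downward triangles. Ribosomal proteins lie farthest right (1.46 and 2.44), early zygotic genes farthest left (-2.27 and -1.47), and chromatin remodelers lie on both sides of 0.

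**Figure D3:**
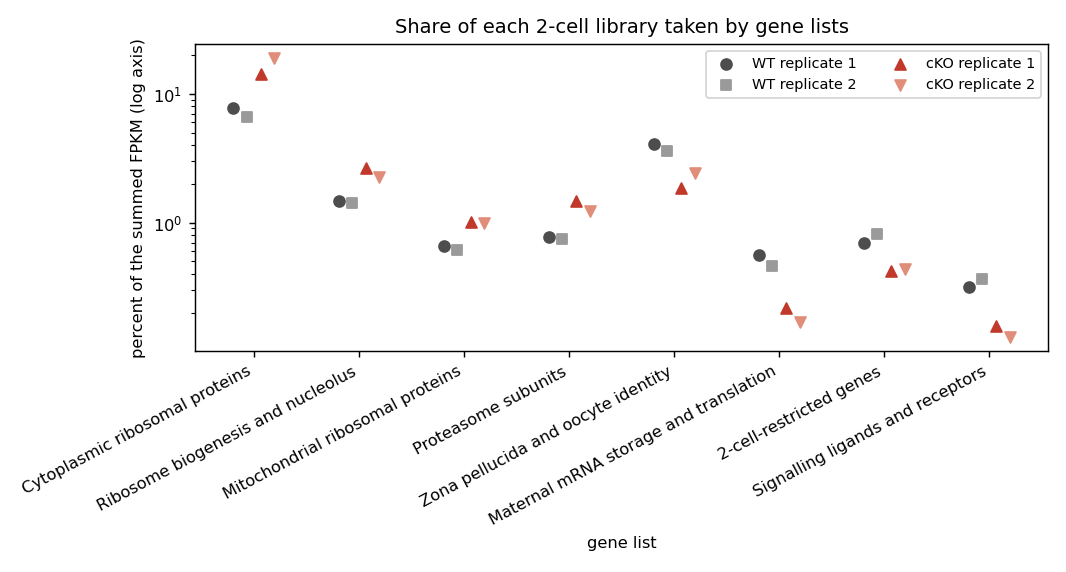
Percent of the summed FPKM (log axis) held by gene lists in each of the 2 WT and 2 cKO 2-cell libraries. Cytoplasmic ribosomal proteins hold 7.72% and 6.66% in WT and 14.3% and 18.98% in cKO embryos.

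Genes for developmental transcription factors, regulators of cell identity that Polycomb complexes commonly silence, held a larger share of falls than all genes. Their medians were -0.41 and -0.57 relative to all genes, less low than those of early zygotic genes (-2.27 and -1.47). Of 162 such genes 32 fell and 1 rose, 19.8% and 0.617%, beside 5.93% and 0.834% of all genes. However, 104 of the 162 were at the floor in WT zygotes, a class in which 11.65% of genes fell. The contrast with 5.93% is therefore in part one of zygote level, and shares within that class were not compared. Of the 83 with a WT mean above 3 FPKM 42 (50.6%) were more than 3-fold lower and none higher, beside 19.8%. The share was higher at matched WT levels too. At 3 to 10 FPKM 60.5% of 38 factors were more than 3-fold lower beside 25.2% of all genes at that level, and at 10 to 30 FPKM 50% of 24 beside 20.9%. Klf10, a zinc finger factor of TGF-beta signalling, fell from 30.7 and 32.9 FPKM in WT to 4.11 and 1 in cKO embryos (log2 fold change -3.36, SE 0.61, adjusted p = 0.0324). Lef1, a Wnt effector, fell from 20.2 and 20.3 to 2.62 and 1. Sox21 was the only factor to rise, from the floor to 3.52 and 2.32 FPKM.

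The falls were spread over families. Their counts are small and stand beside 5.93% of all genes that fell and 43.4% with each cKO value below each WT value. All 7 T-box genes had each cKO value below each WT value and 3 of them fell. Among these was Tbx3, which had 15.05 and 16.8 FPKM in WT and 6.23 and 4.82 in cKO embryos. Of 15 Hox genes 4 fell and 10 lay below WT in both libraries, of 12 Sox genes 3 fell and of 13 Klf genes 2. Of 22 Fox genes 1 fell, a share below that of all genes. Irx genes fell in 2 of 3 and Dlx genes in 2 of 3. Where a gene reached the floor in cKO embryos the size of the loss is not known. Sox2, a pluripotency factor, went from 3.21 and 3.23 FPKM to the floor in both cKO libraries (adjusted p = 0.00838). Over 22 pluripotency factors, however, the medians were 0.56 and 0.08 above all genes, with 2 falls, and Tcl1, the highest in WT, had 1656 and 1653 FPKM against 456 and 272 (adjusted p = 0.0642). Without cKO replicate 2 the number of factors that fell was 17 and without cKO replicate 1 it was 26, while the count by the fold rule was 39 to 51 with each library left out. With the median-ratio scaling 16 fell and 24 were more than 3-fold lower, and with quantile normalization 9 fell. The list was built from name patterns and took in a few other genes, such as the antisense transcripts Msx1as and Otx2os1.

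Ligands and receptors of developmental signalling also held a larger share of falls than all genes. Of 142 genes 19 (13.4%) fell, beside 5.93%, and 1 rose, and 40% of the 60 with a WT mean above 3 FPKM were more than 3-fold lower, beside 19.8%. Here 74 of the 142 were at the floor in WT zygotes, the class in which 11.65% of genes fell. Pdgfa, a growth factor ligand, fell from 32.5 and 34.1 FPKM to 4.17 and 2.15, and Efna1, a membrane-bound Eph ligand, from 23.8 and 29.8 to 6.48 and 1. Frizzled receptors, which bind Wnt ligands, fell in 3 of 6, Bmp genes in 3 of 9, Fgf genes in 2 of 22 and ephrins in 2 of 7. Without cKO replicate 2 the list had 8 falls and without WT replicate 1 it had 45, with 11 under the median-ratio scaling and 8 with the replicate number as a block. Tnfrsf19 rose, at a low level, from 1.35 and 1.28 to 2.88 and 4.25 FPKM. Ion channels had 6 falls (7.69%) and no rise in 78 genes, a share near that of all genes, and 45.9% of the 37 above 3 FPKM were more than 3-fold lower, beside 19.8%. Kcne3, a potassium channel subunit, fell from 15.7 and 15.96 to 1 and 2.49 FPKM and Clic1, a chloride channel, from 5.97 and 5.53 to 1.14 and 1. The channels that fell numbered 3 without cKO replicate 2, 18 and 16 without WT replicates 1 and 2, and 3 under the median-ratio scaling.

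Extracellular matrix and adhesion genes held a larger share of members more than 3-fold lower, among those above 3 FPKM, than solute carriers and membrane traffic genes did. By the test the share that fell was near that of all genes in each of these lists. Of 34 extracellular matrix and adhesion genes above 3 FPKM in WT embryos 50% were more than 3-fold lower, beside 19.8% of all genes above that level, and by the test 7 of 110 (6.36%) fell, beside 5.93%. Cldn3, a tight junction protein, fell from 13.3 and 29.8 FPKM to 1.24 and 2.102, and Itga9, an integrin, from 13.2 and 15.9 to 1.95 and 1.61. The list's median over all 110 members was nonetheless above that of all genes in both libraries (0.12 and 0.30), and a member with a WT mean of 3 FPKM or less cannot pass the fold rule downward. Over the members with a mean of at least 5 FPKM the median was -0.81 relative to the genes of that level. Of 237 solute carriers 15 (6.33%) fell and 1 rose, and 23.7% of the 139 above 3 FPKM were more than 3-fold lower. Slc3a2, the heavy chain of amino acid transporters, fell from 64.9 and 105 to 11.8 and 12.6 FPKM. The scaffold Slc9a3r1 fell from 41.4 and 51.97 to 5.14 and 6.59. Among 85 Rab and Vps genes of membrane traffic 6 (7.06%) fell and none rose, and 17.1% of the 70 above 3 FPKM were more than 3-fold lower. Rab4a, of recycling endosomes, had 26.1 and 30.3 against 4.43 and 1 FPKM. Rab38, of lysosome-related organelles, had 41.5 and 47.6 against 10.7 and 8.95.

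**Figure D4:**
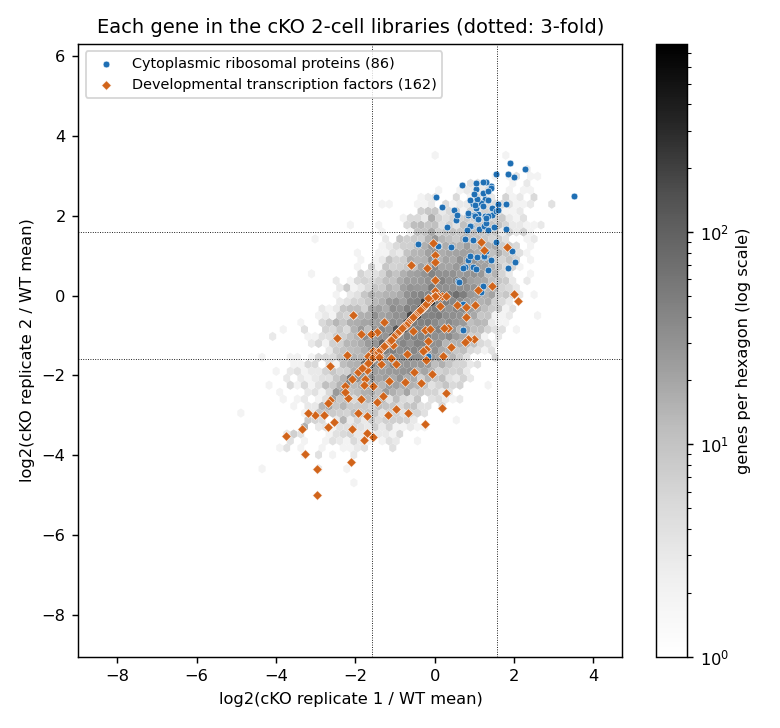
Log2 ratio of cKO replicate 1 (x) and replicate 2 (y) to the WT mean for every gene (grey density), with ribosomal protein genes as blue circles, developmental transcription factors as orange diamonds, and dotted lines at 3-fold. The blue points lie mostly to the upper right and higher on y than on x, and the orange points mostly to the lower left.

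Genes that the study named as early zygotic were low in both cKO libraries. Of the 11 named, 10 were more than 3-fold lower and 3 (27.3%) fell, beside 13.5% and 5.93% of all genes. With the median-ratio scaling 5 were more than 3-fold lower and 1 fell, and where every library had to pass 4 were more than 3-fold lower. The study named these genes, the Zscan4 ones as a family, when reporting lower RT-qPCR levels in cKO 2-cell embryos. Their low level here is therefore no separate support. Whether these libraries also entered the choice of the list is not stated. Hspa2, a heat shock gene transcribed early in the embryo, fell from 30.3 and 36.9 FPKM to 5.41 and 5.47 (adjusted p = 0.0159). Zscan4f, of a family of near-identical 2-cell genes, fell from 17.9 and 29.1 to 1.07 and 5.66. Zfp352 and Phlda2, the members highest in WT, had 280.3 and 468 against 125 and 103 FPKM and 174 and 196 against 58.96 and 46.9. Their groups did not overlap, and neither passed the test (adjusted p = 0.242 and 0.0643). Over 33 2-cell-restricted genes the medians were -1.39 and -0.44 relative to all genes in replicates 1 and 2, with 4 falls (12.1%) and 13 members (39.4%) more than 3-fold lower. Usp17l5 and Dub1, deubiquitinases of a repeated family, fell from 38.8 and 53.9 FPKM to 3.51 and 11.02 and from 20.03 and 20.7 to 2.86 and 2.65. Sp110, the highest of the list in WT, had 1147 and 1024 against 1339.8 and 1153 FPKM, a difference whose direction turned with the scaling (adjusted p = 0.9098).

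Transcripts known from the oocyte were mixed. Of 27 zona pellucida and oocyte identity genes 3 (11.1%) fell, none rose and 9 (33.3%) were more than 3-fold lower, beside 5.93% and 13.5% of all genes, with medians -1.06 and -0.30 relative to all genes. With the median-ratio scaling 4 were more than 3-fold lower and 1 higher, and where every library had to pass 3 were lower. Bmp15, an oocyte growth factor, fell from 531 and 536 FPKM to 79.7 and 67.5 (log2 fold change -2.85, SE 0.32, adjusted p = 0.01005). Gdf9, its partner, had 195 and 304 against 266 and 367 FPKM, with overlapping groups. Uchl1, an abundant oocyte deubiquitinase, fell from 793 and 762 to 152 and 114, and Sohlh1, an oocyte transcription factor, from 5.94 and 6.73 to the floor. Omt2b, the highest of the list in WT, had 6986 and 5243 against 1466 and 3643 FPKM (adjusted p = 0.179). In the subcortical maternal complex, needed for cleavage, Zbed3 fell from 1307 and 1544 to 335 and 179 FPKM, the only one of 8 to do so. None of 9 oocyte Nlrp genes passed the test in limma, and 3 were lower at an unadjusted p under 0.05, beside 2960 of all 14392 genes. All 9 had each cKO value below each WT value, beside 43.4% of all genes.

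Of 25 CCR4-NOT and deadenylation genes, which clear maternal RNA, 3 (12%) fell, beside 5.93% of all genes. Btg4, the adaptor that brings deadenylase to maternal mRNA, fell from 2058 and 1457 FPKM to 208 and 483 (adjusted p = 0.0487), Pan2, a deadenylase, from 22.3 and 22.1 to 5.21 and 5.14, and Dcp2, the decapping enzyme, from 18.5 and 29.2 to 5.37 and 3.06. These 3 act on mRNA tails and caps. The medians of that list were 0.13 and -0.13 relative to all genes, and 37 genes of maternal mRNA storage had 2 falls (5.41%), 1 rise and medians 0.12 and -0.37. Dppa3, which protects the maternal genome from demethylation, had 2958 and 2472 against 5888 and 8774 FPKM with groups that did not overlap (adjusted p = 0.135). Nanos2, of 43 germline and meiotic genes of which 3 fell, went from 27.5 and 16.97 to 3.004 and 2.43 FPKM.

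Chromatin remodelers and histone methylation and acetylation enzymes took opposite sides of the median gene in the cKO libraries. Over 61 remodeler genes the median was 0.43 above all genes in replicate 1 and -0.66 in replicate 2, and over 93 histone methylation and acetylation enzymes 0.32 and -0.24. Both lists hold long transcripts (median 5361 and 4111 bases), and with the trend on length removed the medians in replicate 2 were -0.43 and -0.10. Both lists held a smaller share of falls than all genes. Of the remodelers 2 (3.28%) fell and of the enzymes 3 (3.23%), beside 5.93% of all genes, and 0 rose in either list. More than 3-fold lower were 11.5% and 6.45%, beside 13.5%. Smarca2, the BRM ATPase of the BAF complex, fell from 106 and 164 FPKM to 24.4 and 19.2 (adjusted p = 0.0247), and Arid3c from 16.7 and 7.75 to 1.35 and 1. Kdm4d, a histone H3K9 demethylase, fell from 8.74 and 12.4 to 2.84 and 1.65. Suv420h2, an H4K20 methyltransferase, fell from 5.37 and 4.65 to 1.33 and 1. Histone genes had 2 falls in 48, with H1f0, a replication-independent linker histone, at 24.2 and 26.7 against 5.5999 and 2.27 FPKM. H2afz, the highest, had 1626 and 1492 against 2174 and 4793 (adjusted p = 0.227). The tails of replication-dependent histone mRNAs lack poly(A), which limits their capture by oligo-dT priming.

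Among the genes listed here as writers and erasers of H2AK119ub1, the calls were in PRC1. Of 20 PRC1 genes 2 (10%) fell, beside 5.93% of all genes, with medians -0.10 and -0.12 relative to all genes. Among them Cbx2, a chromodomain reader of Polycomb, fell from 22.2 and 29.6 FPKM to 7.93 and 4.9002 (adjusted p = 0.04897). Pcgf1, of a variant PRC1, had 219.99 and 182 against 484 and 539 FPKM (adjusted p = 0.345) and Rnf2, the ligase subunit, 93.3 and 115 against 118 and 137. Phf1, which recruits PRC2, fell from 121 and 98.9 to 23.1 and 16.5, the only one of 12 PRC2 genes. None of 10 genes for H2A deubiquitinases passed the test in limma. An unadjusted p under 0.05 was reached by 4 with lower and 0 with higher levels, beside 2960 and 690 of all 14392 genes. Of the 10, named after their values were seen, Usp3 had 15.2 and 14.96 against 3.82 and 5.23 FPKM, Usp21 54.9 and 37.4 against 9.88 and 5.09, and Bap1 49.8 and 38.4 against 13.97 and 14.96. These 3 (30%) were the members more than 3-fold lower, beside 13.5% of all genes. Beside genes with a WT mean above 3 FPKM, as all 10 had, that share was 19.8%, and with 10 members the counts are small. Mysm1, another H2A deubiquitinase, had 8.41 and 13.9 against 30.1 and 17.3. Among 72 other deubiquitinases 5 (6.94%) fell, with Usp46 at 48.4 and 45.5 against 14.2 and 10.2 FPKM. A work that the study cites ties USP46 to H2A deubiquitination, and it was not among the 10.

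Cell cycle genes included calls in both directions. Of 49 regulators of M phase and meiotic exit 3 (6.12%) fell, beside 5.93% of all genes, and 1 rose. Wee2, the oocyte kinase that inhibits CDK1, fell from 523 and 405 FPKM to 44.4 and 66.8 (log2 fold change -3.06, SE 0.35, adjusted p = 0.0101). Cdk4, the G1 kinase, rose from 13.2 and 7.55 to 67.2 and 88.1, while its partner Ccnd1 fell from 5.88 and 4.97 to 2.58 and 1. In 89 kinetochore and spindle genes only Mis12 fell, from 71.7 and 81.8 to 20.7 and 31.3, and in 57 replication genes only Mcm4, of the helicase, from 40.8 and 45.04 to 17.8 and 12.9. The medians of these last lists were 0.36 and 0.21 and 0.31 and 0.09 above all genes. Of 98 DNA repair genes 2 fell, among them Ercc4, a nuclease of nucleotide excision repair, at 17.4 and 18.8 against 3.22 and 3.65 FPKM. Of 31 p53 targets and arrest genes 1 fell and none rose, with medians -0.42 and -0.45 relative to all genes. Each cKO value was below each WT value for 20 of them (64.5%), beside 43.4% of all genes.

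Autophagy and protein folding genes moved singly. Atg3, which conjugates LC3 family proteins to lipid, rose from 21.2 and 18.98 FPKM to 155 and 144 (log2 fold change 2.83, SE 0.36, adjusted p = 0.0144), and Gabarapl2, a protein of that family, from 456 and 434 to 1551 and 2179. Both act in building the autophagosome. The 64 genes of autophagy and the lysosome also held 2 falls, and their medians were 0.22 and 0.45 above all genes. Of 114 heat shock and chaperone genes 9 (7.89%) fell, beside 5.93% of all genes, none rose and 18 were more than 3-fold lower, with medians close to all genes (0.07 and 0.10). Fkbp1a, a prolyl isomerase, fell from 191 and 199.6 to 50.04 and 26.5 FPKM and Pdia4, of the endoplasmic reticulum, from 38.1 and 59.02 to 10.1 and 8.67. Zinc finger genes of the C2H2 class, 362 in all, had 15 falls (4.14%) and 6 rises (1.66%) with medians of 0.03 and 0.09. Zfp689 fell from 10.1 and 9.77 FPKM to the floor, Zfp825 rose from 25.2 and 19.2 to 69.5 and 107, and Zfp639 rose from 69.8 and 70.4 to 187 and 221.

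Sterol and fatty acid synthesis, glutathione and imprinted genes gave medians near all genes. The medians were -0.28 and -0.15 over 36 sterol and fatty acid genes, of which 2 (5.56%) fell, beside 5.93% of all genes. More than 3-fold lower were 8 (22.2%), beside 13.5%, a share of 32% beside 19.8% among the 25 with a WT mean above 3 FPKM. Over 67 glutathione and antioxidant genes the medians were -0.09 and -0.18, with 4 falls, Gstm1 among them. Of 5 Obox homeobox genes 1 was more than 3-fold lower and 1 higher, and of 10 oogenesin and Pramel genes 1 was lower. Of 16 genes of DNA methylation and demethylation 2 were more than 3-fold lower and none higher. Over 32 imprinted genes the medians were -0.27 and -0.16, with 1 fall. Unnamed gene models, 2011 of the table, had 120 falls (5.97%) and 20 rises (0.995%), near the 5.93% and 0.834% of all genes. By RefSeq class, 29.2% of 387 lncRNA genes with a WT mean above 3 FPKM were more than 3-fold lower beside 19.4% of 9241 protein-coding genes. Within 3 to 10 FPKM the shares were 38% and 24.5%, and within 10 to 30 FPKM 23% and 20.9%. Over the 20 chromosomes the share ran from 15.3% on chromosome 16 to 24.3% on chromosome 6, with X at 19.8%.

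Transcripts that WT zygotes lacked and transcripts that they held were both among the falls. Of the 854 genes that fell, 490 did not exceed the floor in either WT zygote library, and neither did 74 of the 120 that rose, beside 4206 (29.2%) of all genes. In that class 11.65% fell, beside 2.05% to 6.97% in the classes with a higher level in WT zygotes. That class has almost no spread in the WT zygote libraries that enter the test, and by the fold rule its share was closer to the rest. Among genes with a WT 2-cell mean above 3, 23.5% of those at the zygote floor were more than 3-fold lower, beside 17.1% of those up to 5 FPKM in WT zygotes, 21% up to 25 and 18.1% above 25. At matched WT 2-cell levels the order of the first and last class turned. Their shares were 25.6% and 18.3% at 3 to 10 FPKM, 22.6% and 24.6% at 10 to 30, and 13.9% and 17.8% at 30 to 100.

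Low and CpG-poor genes held more of the strong falls. The share more than 3-fold lower was 25.2% at 3 to 10 FPKM in WT embryos, 20.9% at 10 to 30, 13.7% at 30 to 100, 10.3% at 100 to 300 and 13.4% above 300, where 13.4% were also more than 3-fold higher. By CpG in the 300 bases around the start, 28.2% of genes with up to 5 CpG were more than 3-fold lower, 23.7% of those with 6 to 15, 15.9% with 16 to 25 and 16.9% above 25. At a WT level of 10 to 30 FPKM the order was the same at the low end, with 31.6%, 25.4%, 17.8% and 16.8%. The libraries differed in this. In replicate 1 the median log2 ratio at that level went from -1.10 in the CpG-poorest to -0.38 in the CpG-richest class, while in replicate 2 it was -0.77 and -0.96. Genes that fell had a median of 15 CpG, those that rose 17 and all genes 19. Of the windows shown above, Th and Dydc2 belong to the CpG-poorest class.

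Transcript length moved with the ratio in cKO replicate 2 and little in replicate 1. Over the genes, themselves no replicates, Spearman's correlation of length with the log2 ratio was 0.0254 in replicate 1 and -0.173 in replicate 2. From transcripts up to 1000 bases to those above 8000 bases the median log2 ratio went from 0.00 to -0.84 in replicate 2, and was -0.22 and -0.23 at the ends in replicate 1. Up to 1000 bases 9.43% of genes were more than 3-fold higher, beside 1.41% at 4000 to 8000 bases.

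**Figure D5:**
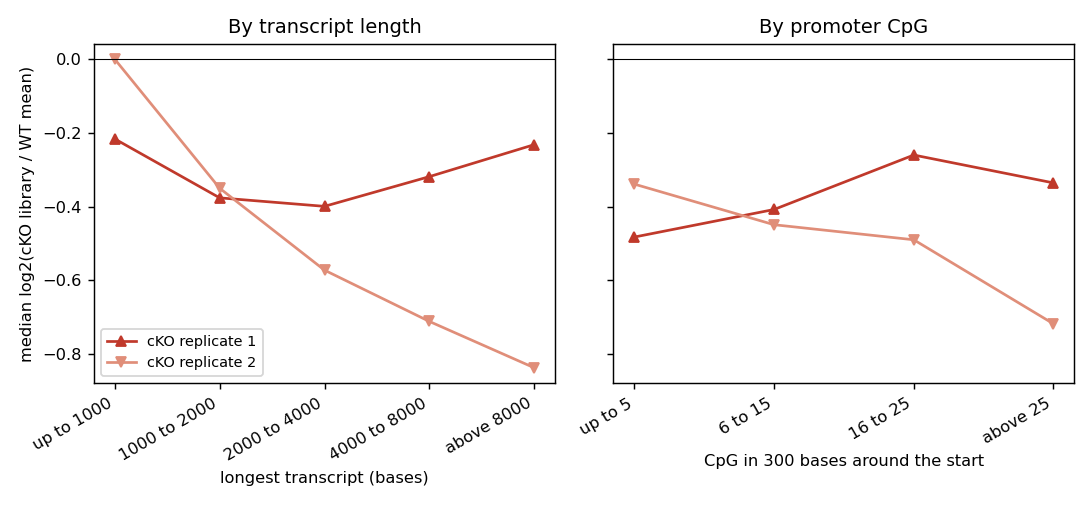
Median log2 ratio of each cKO 2-cell library to the WT mean by length of the longest transcript (left) and by number of CpG in 300 bases around the start site (right). Replicate 2 declines with length from 0.00 to -0.84 while replicate 1 stays between -0.22 and -0.40, and the libraries take different courses over CpG content.

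Read against WT separately, the cKO libraries shared many of their strong changes, and each had others of its own. Against the WT mean, 2183 genes (15.2%) were more than 3-fold lower in replicate 1 and 2836 (19.7%) in replicate 2, of which 1363 (9.47% of all genes) were lower in both. Higher were 438 (3.04%) and 658 (4.57%), with 170 (1.18%) in both. Past 3-fold in opposite directions were 6 genes lower in replicate 1 and higher in replicate 2, and 3 the other way. Genes lower in replicate 1 only (820) had a median transcript of 2069.5 bases and those lower in replicate 2 only (1473) of 3306, and among higher genes the medians were 3092 and 1525.5 bases. The Spearman correlation of the log2 ratios between the cKO libraries was 0.622 across genes, which share the WT mean as denominator.

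The genes with the largest ratios between the cKO libraries show how far these parted. Crebbp, a long transcript for the histone acetyltransferase CBP, had 32.6 and 33.9 FPKM in WT embryos, 25.04 in cKO replicate 1 and 2.36 in replicate 2. Atxn2l, of stress granules, had 73.6 and 55.2 against 43.9 and 6.45, and Mybl2, a cell cycle transcription factor, 45.2 and 64.3 against 30.1 and 5.87. In these genes replicate 1 was nearer to WT and replicate 2 far below. Wwc2 and Mark2, a polarity kinase, lay below WT in both, at 32.6 and 5.26 FPKM for Wwc2 and 34.4 and 6.96 for Mark2, with WT values of 69.6 and 68.4 and of 60.2 and 67.7. Sebox, an oocyte homeobox gene, went the other way between libraries, with 395 and 203 FPKM in WT and 20.2 and 121 in cKO. Ankrd22 (91.3 and 82.5 against 4.44 and 30.2) and Gnrh1, the gonadotropin-releasing hormone gene (130.1 and 109 against 18.9 and 89.2), shared that order. Tapbpl (15.8 and 11.6 against 17.2 and 90.6) and Bloc1s3 (11.6 and 8.89 against 13.7 and 58.5) were higher than WT in both cKO libraries and highest in replicate 2. These 10 genes were chosen for the ratio between the cKO libraries, so that ratio is a description.

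Markers of cells that could come along with embryos were low in all 4 libraries, with a few exceptions. The 4 cumulus and granulosa markers in the table summed to 5.38 and 11.4 FPKM in WT and 4 and 4.32 in cKO embryos, and the 6 blood markers to 20.7 and 21.9 against 9.29 and 9.89. The 7 sperm and spermatid markers summed to 34.7 and 37.2 against 19.6 and 63.7, most of it Ldhc at 21.8 and 20.9 against 12.6 and 56.9, while Odf1 was at the floor in all 4. The 9 oviduct epithelium markers summed to 86.4 and 129 against 88.1 and 125, of which Epcam made up 44.4 and 82.4 against 75.2 and 114. Epcam, Krt8 and Krt18 are also expressed by early embryos. Krt8 fell from 9.91 and 9.01 FPKM to the floor in both cKO libraries and Krt18, its keratin partner, from 10.8 and 13.7 to 3.38 and 1. By the test 3 of the 9 oviduct (33.3%), 2 of the 7 sperm (28.6%), 1 of the 6 blood (16.7%) and 0 of the 4 cumulus markers fell and none rose, beside 5.93% and 0.834% of all genes. Most of these markers were at the floor in WT zygotes (8 oviduct, 5 sperm, 5 blood and 3 cumulus). In that class 11.65% of genes fell.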

How the data were processed

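RNA was sequenced from pools of 10 zona-free embryos by Smart-seq2, which primes on poly(A) tails. Per the labels and the study's methods, the authors mapped trimmed reads to mm9 with TopHat2 2.1.1 and computed FPKM with Cufflinks 2.2.1. The gene annotation was not given in the sources used here. The FPKM table the authors deposited leaves out genes under 1 FPKM in all libraries and sets every value under 1 to 1, so read depth is unknown and no counting interval can be given. All 4 RNA groups have 2 libraries, grouped by the labels. Nothing used here says that libraries of a group came from separate mothers or days, so p-values measure the spread between these libraries, which may be technical.

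From the deposited values, log2(FPKM + 1) was fitted with limma 3.58.1 (R 4.3.3) over all 14392 genes and the 8 RNA libraries in 4 groups, with intensity trend, a weight for each group (arrayWeights) and Benjamini-Hochberg adjustment, with a threshold of 0.05. The fold rule compared group means without a test, since how the study combined replicates was not given in the sources used here. Ratios of single libraries were taken to the WT mean. No set test was run. The members of the comparison, the 58 gene lists (57 with members in the table, matched by symbol or name pattern) and the tests were chosen with earlier results of these data known, and the list of early zygotic genes was taken from the study. Named genes were Usp16, the 8 largest log2 fold changes in each direction under the limits given with them, up to 3 falls, 3 rises and the 2 highest WT genes of each list, of which some are printed, and the 5 largest ratios between the cKO libraries in each direction, with at least 25 FPKM in the higher one. Other genes named were chosen after their values were seen, and some genes are not reported here. Transcript length, CpG content and promoter sequence came from the longest GENCODE transcript of each gene in mm9, matched by symbol for 13897 genes (96.6%). Gene class came from RefSeq tables, for 14279 genes.

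Same-numbered WT and cKO libraries did not deviate together (correlation -0.311 over 9086 genes), and the number is not stated to mark a shared day. On simulated data of 14392 genes the weighted limma fit recovered 76.8% of 200 genes changed 8-fold in the cKO 2-cell group, with 8 unchanged genes among 161.6 calls on average over 5 runs. It recovered 0% of those changed 4-fold or 2-fold, and called 0 genes when none was changed. The simulation set no floor and gave genes of like level the same spread. It therefore lacked genes with almost no spread in zygotes. The 490 falls at the zygote floor had a median log2 fold change of -1.22, so the simulated rates do not describe them. The alternatives were other pseudocounts, filters, thresholds, scalings, spreads, a replicate block and leaving out each library. Python 3.11.15, pandas 2.3.3 and scipy 1.17.1 were used. The 7 ChIP samples were not analysed here.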

Additional observations from a re-analysis of the deposited data

Results flagged for a closer look

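The effect of genotype differed between 2-cell embryos and zygotes in 742 genes by the interaction term of the limma fit (adjusted p under 0.05 over 14392 genes, 3480 at an unadjusted p under 0.05). In 655 of them the 2-cell difference, cKO minus WT, was the lower and in 87 the higher, and 716 of the 742 were among the genes that fell or rose at the 2-cell stage.

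The 16 genes with the largest changes were chosen for their 2-cell difference, so that the same term, past the threshold in 14 of them, repeats that choice wherever the zygote groups differ little. The difference of the log2 fold changes, 2-cell minus zygote, was -3.95 for Th, -4.12 for Gstm1, -3.94 for Abhd14b, -4.08 for Stard3nl, -3.45 for Agr3, -3.27 for Pkd2l2 and -3.64 for C86187. It was 2.92 for Dydc2, 3.40 for Spesp1, 3.37 for Nt5c, 3.25 for Hibch, 3.14 for Aimp1, 3.02 for Bhmt and 2.97 for Syngr1. Adjusted p-values ran from 0.00799 for Gstm1 and Abhd14b to 0.0386 for Aimp1, and those of Ccni and Ptgis were 0.0557 and 0.0505. Usp16 had a difference of 2.65 with an adjusted p of 0.0522. The zygote values entered as deposited, and for Gstm1, Abhd14b, Spesp1, Nt5c, Hibch, Bhmt and Syngr1 the log2 ratio of cKO to WT zygotes was 0, so that the difference equals the 2-cell change.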

How the results depend on the processing

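The counts, more than the direction of named genes, depended on the processing. Each group had 2 libraries and read depth is unknown. By WT 2-cell level, 3.48% of genes fell up to 3 FPKM and 9.02% at 3 to 10. In the classes above 10 FPKM it was 4.59% to 6.83%. On simulated data without a floor the test recovered 0% of the genes changed 4-fold or 2-fold. All 94 named genes that had fallen or risen kept their direction under the alternatives in which they were tested, while the number still past the threshold was 57 with median-ratio scaling, 62 with quantile normalization, 56 with the replicate block, and 68, 64, 49 and 33 without WT replicate 1, WT replicate 2, cKO replicate 1 and cKO replicate 2.

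Genes more than 3-fold lower numbered 982 where every library had to pass, 4120 at 2-fold, 1156 with a pseudocount of 1 and 905 with median-ratio scaling, and 1983 to 2836 with 1 library left out. Higher genes numbered 111, 1259, 993 with median-ratio scaling, 246 with equal sums, and 386 to 658 with 1 library left out. In limma, 3538 genes were lower and 887 higher with 1 spread for all groups. Among the 4 2-cell libraries alone limma called 0 lower and 0 higher at an adjusted p under 0.05, with 3416 and 819 at an unadjusted p under 0.05. Median-ratio scaling gave 345 and 245 and quantile normalization 281 and 280. The replicate block gave 419 and 46, and the crossed pairing, added after seeing the data, 442 and 54. By the fold rule the block gave 2146 lower and 340 higher, the same as the geometric mean by construction. Leaving out 1 library gave 424 to 1656 lower and 152 to 284 higher.

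By WT zygote level, the shares more than 3-fold lower with median-ratio scaling were 14.7% at the floor, 7.94% up to 5 FPKM, 10.8% up to 25 and 10.2% above 25. Among genes with a mean of at least 5 FPKM they were 20.6%, 13.1% and 19.5% for the first 3 classes. At a WT 2-cell level of 10 to 30 FPKM they were 22.6% at the floor, 14.4% up to 5, 21.2% up to 25 and 24.6% above 25. With median-ratio scaling, added after seeing the data for the single libraries, 606 genes were lower in both cKO libraries, 700 in replicate 2 only, 403 higher in both and 990 in replicate 2 only. Direction turned for Gapdh (0.18, median-ratio scaling) and Sp110 (-0.0545 with equal sums, -0.36 with quantiles). Relative to all genes it turned for the medians of histone genes (-0.11, length trend removed, added after seeing the data), glycolysis (0.0782) and extracellular matrix (-0.81), both at 5 FPKM or more, and with 1 library left out for glutathione genes (-0.33 to 0.00355), DNA replication (-0.0550 to 0.19), imprinted genes (-0.22 to 0.10) and blood markers (-0.33 to 0.0356). Ldhc, without a call, had -0.71 to 1.37 with 1 library left out. The causes were not tested.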
